A study of Mus musculus with 10 samples.

Results

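The mitosis genes are 42 named mouse genes whose products build, drive or regulate cell division, from the cyclins and Cdk1 through the spindle checkpoint, kinetochores and motors to cytokinesis and condensin. They were chosen by symbol, with earlier results of these data known. Of the 42, 41 had a probe set under their own symbol among 19505 genes on the array, each with a single probe set, and cyclin B1 (Ccnb1) was not analysed here. These 41 passed the filter on low values that kept 13393 genes for testing.

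RNA was measured on single-colour Affymetrix arrays. The samples were labelled as CD4+ T cells, wild type on strain C57BL/10, that had been transduced to express GFP or oncogenic Vav1, and the recipients were immunocompromised mice examined 6 months after transfer. Vav1 is a guanine nucleotide exchange factor of blood cells that acts downstream of the T cell receptor, and GFP is an inert fluorescent protein that served as the control. There were 2 GFP spleen arrays, 4 oncogenic Vav1 spleen arrays, 2 GFP lymph node arrays and 2 oncogenic Vav1 lymph node arrays, so that group size limits the precision. The groups shared the strain, the transfer and the interval, and differed in the construct and the tissue. The 10 arrays came from 7 animals by their descriptions, and 3 animals, called CTL2, ONCO2 and ONCO3 there, gave both tissues. The vector, its promoter, the host strain, the age of the animals and the form of oncogenic Vav1 were not given in the sources used here.

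The labelled cell type was checked against defining markers. The T cell genes Cd3e and Cd4 were above the filter level on all arrays. So were the B cell genes Cd79a and Ms4a1, the macrophage gene Csf1r and the erythroid gene Slc4a1. Among the probe sets of an array, Cd79a lay between percentiles 95.3 and 99.5, Ms4a1 between 91.0 and 98.0 and Csf1r between 94.1 and 97.8. Cd3e lay between percentiles 82.4 and 97.7 and Cd4 between 76.4 and 93.4. Some markers of other cell types thus read high on every array, but others did not. The erythroid gene Rhag read 4.22 and 4.47 on the GFP lymph node arrays and 5.41 on GFP spleen replicate 1. These values, and those of the neutrophil precursor gene Mpo on every GFP array, were below the filter level. The Vav1 probe set read 9.63 and 9.83 (log2) on the GFP spleen arrays, 10.3, 9.99, 10.2 and 10.2 on the oncogenic Vav1 spleen arrays, 9.52 and 9.69 on the GFP lymph node arrays, and 10.2 and 9.27 on the oncogenic Vav1 lymph node arrays. Its change passed the test in neither tissue (0.45 in spleen, limma adjusted p = 0.14; 0.11 in lymph node, limma adjusted p = 0.80), and the labels were taken as given. In such bulk RNA, more dividing cells and more mitotic RNA per cell cannot be told apart.

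Cells that enter mitosis raise cyclin B and Cdk1 activity, condense their chromosomes, attach them through kinetochores to a bipolar spindle, and hold anaphase back through the spindle checkpoint until every chromosome is attached. The anaphase promoting complex then marks securin and the cyclins for destruction, separase opens the cohesin rings, and cytokinesis divides the cell. Many of these genes are switched on together late in the cell cycle through promoter elements known as the cell cycle genes homology region (CHR) and the CCAAT box bound by NF-Y, and in resting lymphoid tissue their RNA is held at a low level outside germinal centres and other dividing cells.

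Because this mode of control is background for many such genes, the members' promoters are shown before their values. RefSeq windows on GRCm38.p6, each of 250 bases before to 50 bases after a transcription start, were matched by symbol for 36 of the 42 genes and came to 38 windows. Windows were searched on both strands for the CHR core TTTGAA and the NF-Y box CCAAT. Stretches of 9 members from 120 bases before to 30 bases after the start, 5′ to 3′ along the gene, follow, chosen to show a cyclin, a checkpoint kinase, a chromosomal passenger, a kinetochore protein, a motor, a cytokinesis regulator, an anaphase activator and a condensin subunit with the CHR core, and Bub1, which lacks it in this window. Capitals mark matches of either motif, read as TTTGAA or TTCAAA and as CCAAT or ATTGG, and in Cdca8 the last pair of matches overlaps. The stretches lie on GRCm38.p6 with Ccnb2 at chr9:70421525-70421674 on the minus strand, Ttk at chr9:83834569-83834718 on the plus strand, Cdca8 at chr4:124936888-124937037 on the minus strand, Cenpf at chr1:189688057-189688206 on the minus strand, Kif11 at chr19:37376262-37376411 on the plus strand, Racgap1 at chr15:99651627-99651776 on the minus strand, Cdc20 at chr4:118437314-118437463 on the minus strand, Ncapg at chr5:45669805-45669954 on the plus strand and Bub1 at chr2:127831830-127831979 on the minus strand.
Ccnb2: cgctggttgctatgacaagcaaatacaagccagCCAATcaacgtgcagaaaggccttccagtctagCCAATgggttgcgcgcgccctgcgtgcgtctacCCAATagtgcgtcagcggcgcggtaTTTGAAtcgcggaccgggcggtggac
Ttk: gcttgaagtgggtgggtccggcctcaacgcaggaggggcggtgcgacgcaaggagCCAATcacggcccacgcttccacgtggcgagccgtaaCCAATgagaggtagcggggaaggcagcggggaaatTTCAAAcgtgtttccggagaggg
Cdca8: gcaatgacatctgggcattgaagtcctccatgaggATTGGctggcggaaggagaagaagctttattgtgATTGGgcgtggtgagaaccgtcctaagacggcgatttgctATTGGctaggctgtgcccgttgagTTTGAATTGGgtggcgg
Cenpf: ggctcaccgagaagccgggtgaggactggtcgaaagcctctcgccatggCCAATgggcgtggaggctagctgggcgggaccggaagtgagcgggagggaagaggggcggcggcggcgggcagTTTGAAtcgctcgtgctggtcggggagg
Kif11: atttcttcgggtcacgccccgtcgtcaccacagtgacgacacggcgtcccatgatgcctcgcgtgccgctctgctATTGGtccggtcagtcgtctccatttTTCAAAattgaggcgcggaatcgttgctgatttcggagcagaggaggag
Racgap1: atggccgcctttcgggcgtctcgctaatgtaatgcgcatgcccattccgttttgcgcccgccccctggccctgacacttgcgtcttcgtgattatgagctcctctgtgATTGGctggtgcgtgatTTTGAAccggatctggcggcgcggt
Cdc20: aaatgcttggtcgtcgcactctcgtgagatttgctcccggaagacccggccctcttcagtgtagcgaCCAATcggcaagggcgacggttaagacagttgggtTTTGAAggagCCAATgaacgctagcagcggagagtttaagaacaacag
Ncapg: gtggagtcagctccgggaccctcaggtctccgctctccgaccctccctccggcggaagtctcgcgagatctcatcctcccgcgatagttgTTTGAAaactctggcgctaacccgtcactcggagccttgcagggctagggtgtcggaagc
Bub1: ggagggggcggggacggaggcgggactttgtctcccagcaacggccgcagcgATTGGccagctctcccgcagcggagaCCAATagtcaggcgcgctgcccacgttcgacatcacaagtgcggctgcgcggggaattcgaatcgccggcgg

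The CHR core was present in 30 of the 38 windows of mitosis genes (78.9%) and in 17.9% of all 32851 RefSeq windows of the same length. The NF-Y box was present in 76.3% of the members' windows and 37.4% of all windows, and both motifs in 68.4% and 6.95%. Of the 38 CHR matches in the members' windows, 28 started within 50 bases of the start site, as in Ccnb2, where the core follows a row of 3 NF-Y boxes. Ect2 and Prc1 had overlapping windows, and a match that lies in both is counted in each. At least 2 NF-Y matches were found in 19 of the 38 windows, against 11.7% of all windows. Of the 36 members with a window, 8 held no CHR match, namely Birc5, Bub1, Ccnb1, Cenpe, Mad2l1, Nuf2, Nusap1 and Pttg1. The DNA replication genes, which act in the preceding S phase, held the CHR core in 12.5% of windows and the NF-Y box in 59.4%. T cell genes held each motif in 2 of 13 windows (15.4%), and erythroid genes held them in 16.7% and 41.7%. Lists closer to the members held the CHR core in more windows. Its share was 51.5% in other spindle and cytokinesis genes and 38.5% in regulators of mitotic entry. It was 37.1% in other kinetochore and centromere genes and 25.9% in other condensin, cohesin and anaphase promoting complex genes. The NF-Y shares of these lists, in the same order, were 60.6%, 69.2%, 71.4% and 44.4%. A match is a description of the letters, and no match says only that they are not in this window.

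**Figure D1:**
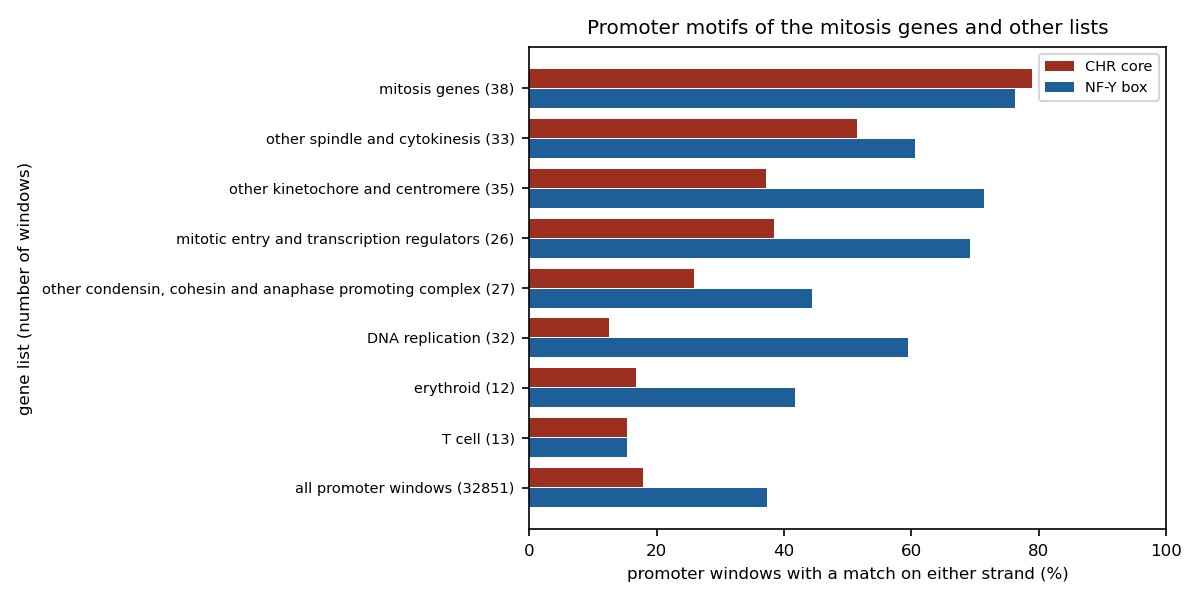
Share of promoter windows (percent, from 0) that hold the CHR core TTTGAA or the NF-Y box CCAAT on either strand, for mitosis genes, other fixed gene lists and all RefSeq windows. The members' share with the CHR core is 78.9%, against 17.9% over all windows.

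Mitosis genes were higher with oncogenic Vav1 in both tissues. In spleen, 37 of the 41 rose at a limma adjusted p under 0.05, where 17.1% of all genes tested rose and 26.8% changed, and their median log2 change was 1.90 against 0.00 over all genes. In lymph node, 40 of the 41 rose, where 7.87% of all genes tested rose and 18.7% changed, with a median of 2.33 against -0.02 over all genes. No member fell in either tissue, and 37 rose in both. Over all genes, 2288 of the 3596 calls in spleen were rises, and 1842 of 4033 after a repeated quantile normalization, under which the same 37 members rose with a median of 1.79. Every member of the 41 had all 4 oncogenic Vav1 spleen arrays above both GFP spleen arrays (30.3% of all genes tested did), and 40 of the 41 had both oncogenic Vav1 lymph node arrays above both GFP ones (24.2% of all genes). Where p-values are given, they measure the spread between these arrays only, and values are log2 intensities from RMA, whose levels are not compared between genes.

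Some control values lay near background, meaning that a group mean was below the 40th percentile of each of its arrays, where a fold is uncertain. This held for 8 members in GFP spleen (Cdk1, Bub1b, Ttk, Kif2c, Kif4, Prc1, Anln and Cdc20) and 7 in GFP lymph node (Cdk1, Bub1, Ttk, Kif2c, Kif4, Anln and Ncapg), and for 0 members in either oncogenic Vav1 group. With no filter on low values, the counts were again 37 and 40.

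**Figure D2:**
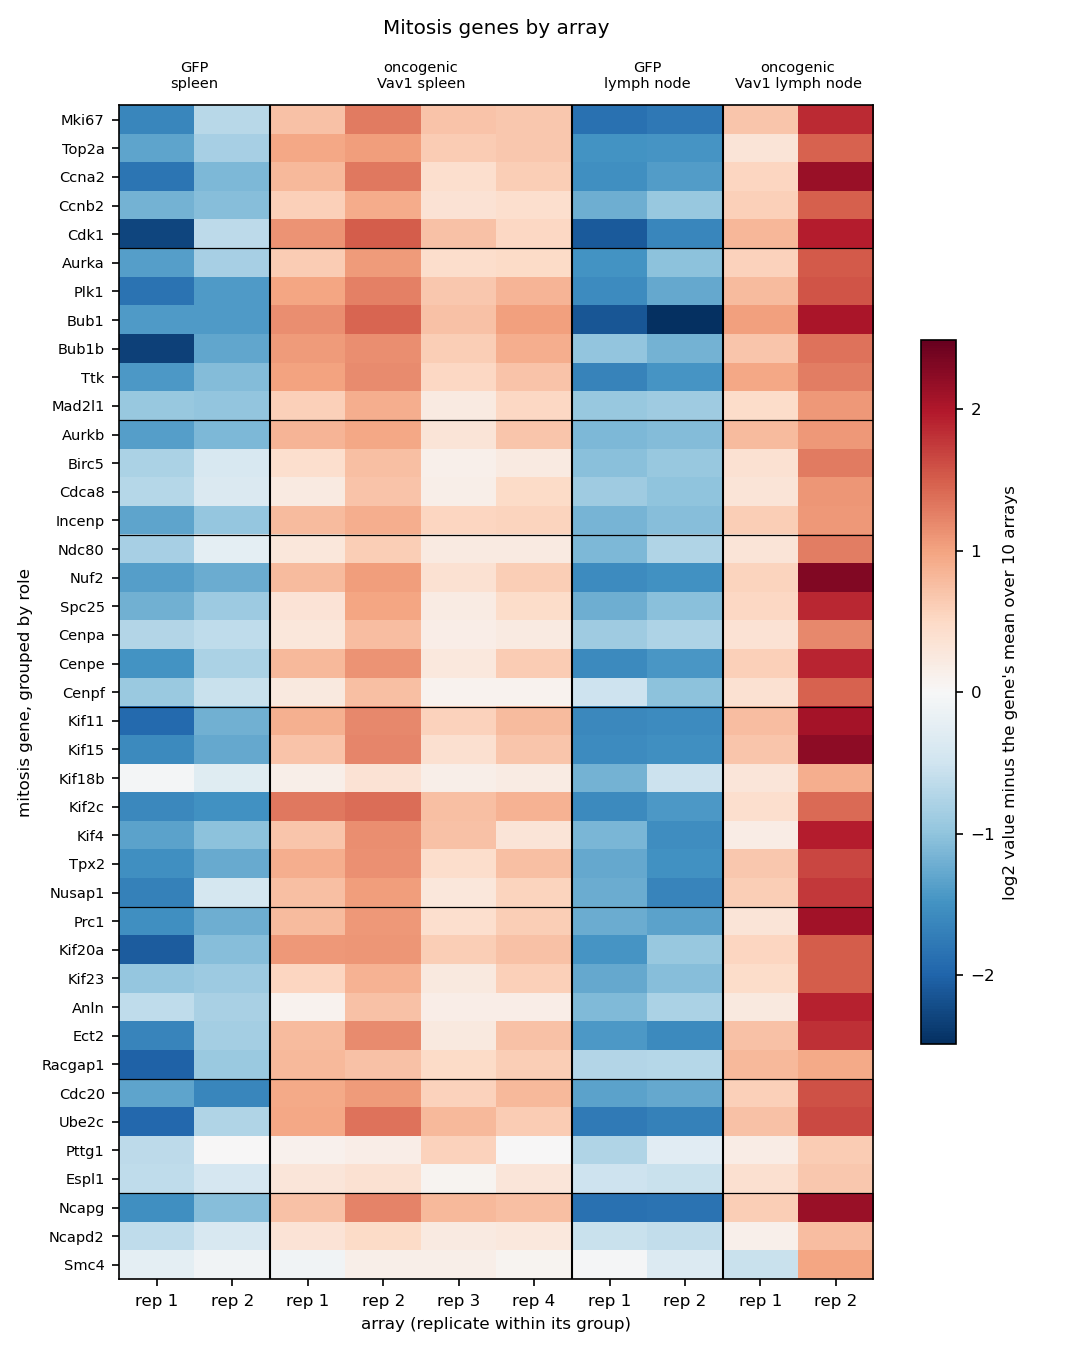
Log2 value of each of the 41 measured mitosis genes (rows, by role) on the 10 arrays (columns, by group), each row shown as the difference from its mean over the arrays. Within each tissue the oncogenic Vav1 columns are above the GFP columns except for Smc4 in lymph node, and oncogenic Vav1 lymph node replicate 2 is the highest column in 41 of 41 rows.

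The cell cycle engine and the general proliferation markers rose in 5 of 5 measured members in each tissue. Mki67, the source of the Ki-67 antigen that coats mitotic chromosomes, read 9.20 and 10.12 on the GFP spleen arrays and 11.53, 12.11, 11.51 and 11.48 on the oncogenic Vav1 spleen arrays. Its lymph node values were 8.95 and 9.03 with GFP and 11.51 and 12.66 with oncogenic Vav1. The groups did not overlap in either tissue, and the changes were 2.00 (SE 0.33, limma adjusted p = 0.0023) and 3.09 (SE 0.38, limma adjusted p = 0.00038). Cdk1, the kinase that drives entry into mitosis, read 4.96 and 6.58 against 8.35, 8.74, 7.96 and 7.76 in spleen, a rise of 2.43 (SE 0.45, limma adjusted p = 0.0039). In lymph node it read 5.16 and 5.62 against 8.06 and 9.19, a rise of 3.24 (SE 0.52, limma adjusted p = 0.0018), from GFP levels near background in both tissues. The 2 GFP spleen arrays lay further apart for Cdk1 than the 4 oncogenic Vav1 ones. Cyclin A2 (Ccna2), a partner of Cdk1 in late S and G2 phase, rose by 2.26 in spleen and 2.80 in lymph node. Cyclin B2 (Ccnb2), whose promoter is printed above, read 7.78 and 7.89 against 9.55, 9.88, 9.32 and 9.38 in spleen, and 7.74 and 8.02 against 9.56 and 10.44 in lymph node. Its controls were within 0.3 of each other in each tissue, and it rose by 1.70 (SE 0.23) and 2.12 (SE 0.27). Top2a, the topoisomerase that untangles sister chromatids, rose by 1.89 and 2.37.

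Mitotic kinases and spindle checkpoint genes rose in 6 of 6 members in both tissues, with medians of 2.30 in spleen and 2.45 in lymph node. Polo-like kinase 1 (Plk1), which acts at centrosomes, kinetochores and the midzone, read 6.72 and 7.15 with GFP and 9.54, 9.80, 9.21 and 9.39 with oncogenic Vav1 in spleen. In lymph node it read 6.98 and 7.28 against 9.33 and 10.11. The gap between groups was far wider than the spread within them, and the changes were alike in size at 2.55 (SE 0.23, limma adjusted p = 0.00016) and 2.59 (SE 0.27, limma adjusted p = 0.00015). Bub1, a checkpoint kinase at kinetochores, read 6.21 on both GFP spleen arrays and 8.76, 9.07, 8.35 and 8.64 on the oncogenic Vav1 ones, a rise of 2.50 (SE 0.27, limma adjusted p = 0.00034). It read 5.49 and 5.13 against 8.64 and 9.64 in lymph node. That rise of 3.83 (SE 0.31, limma adjusted p = 3.67e-05), was from a GFP level near background, so its size is uncertain. Bub1b, which encodes the checkpoint protein BubR1, had a GFP spleen level near background. Its spleen values were 5.17 and 6.19 against 8.56, 8.65, 8.10 and 8.40, a change of 2.75 (SE 0.28, limma adjusted p = 0.00028). Lymph node values were 6.50 and 6.32 against 8.18 and 8.83, a change of 2.10 (SE 0.32). Ttk, the kinase Mps1 that starts checkpoint signalling, read 5.36 and 5.73 against 7.80, 7.97, 7.31 and 7.51 in spleen and 5.13 and 5.32 against 7.77 and 8.06 in lymph node. It rose by 2.11 (SE 0.20) and 2.69 (SE 0.23), and its 2 oncogenic Vav1 lymph node arrays were closer together than those of Bub1. Aurora A (Aurka), the centrosomal kinase, rose by 1.75 and 2.31, and Mad2l1, which holds Cdc20 inactive, by 1.52 and 1.68.

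All 4 members of the chromosomal passenger complex, which corrects faulty attachments and later marks the cleavage plane, rose in both tissues. Its kinase Aurkb read 7.19 and 7.45 against 9.40, 9.53, 8.88 and 9.25 in spleen, and 7.45 and 7.48 against 9.35 and 9.63 in lymph node. It rose by 1.95 (SE 0.18, limma adjusted p = 0.00017) and 2.03 (SE 0.21, limma adjusted p = 0.00015). The SD of Aurkb within a group was 0.19 in GFP spleen and 0.28 in oncogenic Vav1 spleen. In lymph node it was 0.03 with GFP and 0.20 with oncogenic Vav1. The scaffold Incenp rose by 1.83 and 1.95. The targeting subunits moved less in spleen: survivin (Birc5) rose by 0.96 (SE 0.25, limma adjusted p = 0.018) and borealin (Cdca8) by 0.91 (SE 0.23, limma adjusted p = 0.015). In lymph node they rose by 1.82 and 1.65. The GFP levels of Cdca8 were 7.12 and 7.47 in spleen and 6.94 and 6.84 in lymph node, against 8.05, 8.53, 7.96 and 8.30, and 8.14 and 8.92, with no overlap.

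Kinetochore and centromere genes rose in 6 of 6 members in each tissue, with a median of 1.29 in spleen and 2.03 in lymph node. Nuf2, a subunit of the Ndc80 complex that grips microtubules, read 6.70 and 6.83 against 8.86, 9.11, 8.45 and 8.68 in spleen and 6.52 and 6.57 against 8.64 and 10.38 in lymph node. It rose by 2.01 (SE 0.37) and 2.96 (SE 0.43), and the 2 oncogenic Vav1 lymph node arrays differed from each other by nearly as much as the spleen groups did. Ndc80 itself, of the same complex, rose by 0.87 in spleen (SE 0.26, limma adjusted p = 0.033) and 1.73 in lymph node. Its spleen values were 6.92 and 7.50 against 8.02, 8.35, 7.96 and 7.96. Spc25, a further subunit, rose by 1.55 and 2.33. The motor Cenpe, which carries chromosomes to the spindle equator, rose by 1.84 and 2.76, the centromeric histone Cenpa by 1.04 and 1.60, and the corona protein Cenpf by 1.04 (SE 0.30, limma adjusted p = 0.028) and 1.69.

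Among the 7 spindle motors and microtubule proteins, 6 rose in spleen and 7 in lymph node. Kif11, the kinesin that pushes the spindle poles apart, read 6.03 and 6.76 against 8.83, 9.16, 8.53 and 8.73 in spleen, and 6.35 and 6.38 against 8.73 and 10.03 in lymph node. It rose by 2.42 (SE 0.32) and 3.01 (SE 0.38). Kif15, a motor that helps keep the spindle bipolar, rose by 2.18 and 3.00. Kif2c, which depolymerises microtubule ends at centromeres, read 5.46 and 5.57 against 8.38, 8.46, 7.82 and 7.93 in spleen, a rise of 2.63 (SE 0.27) from near background. Its rise in lymph node was 2.41 (SE 0.31). The chromokinesin Kif4 rose by 1.90 and 2.42, the Aurora A activator Tpx2 by 2.20 and 2.57, and the microtubule bundler Nusap1 by 1.71 and 2.63. Kif18b, a kinesin that shortens astral microtubules, did not pass in spleen. It read 7.28 and 7.02 there with GFP and 7.48, 7.69, 7.48 and 7.53 with oncogenic Vav1 (0.40, SE 0.21, limma adjusted p = 0.18). In lymph node it read 6.16 and 6.80 against 7.63 and 8.23 and rose by 1.45 (SE 0.24, limma adjusted p = 0.0023). Both of its GFP spleen arrays were above both GFP lymph node arrays.

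Cytokinesis genes rose in 5 of 6 members in spleen and 6 of 6 in lymph node. Racgap1, part of the centralspindlin complex at the midzone, read 6.36 and 7.44 against 9.17, 9.10, 8.85 and 8.99 in spleen, and 7.64 and 7.66 against 9.18 and 9.32 in lymph node. It rose by 2.13 (SE 0.24) and 1.60 (SE 0.28) and was 1 of the 4 members whose change was the smaller in lymph node. Its oncogenic Vav1 lymph node arrays were the closest together of the 41 members. Its partner Kif23 rose by 1.49 and 2.15, Ect2, which activates RhoA at the cleavage furrow, by 1.97 and 2.78, the midzone kinesin Kif20a by 2.44 and 2.22, and the microtubule crosslinker Prc1 by 2.09 and 2.49. Anillin (Anln), the scaffold of the contractile ring, read 5.75 and 5.57 against 6.45, 7.11, 6.54 and 6.54 in spleen. The spleen groups did not overlap, but the change of 1.00 (SE 0.37) did not pass (limma adjusted p = 0.068). In lymph node Anln rose by 2.02 (SE 0.43, limma adjusted p = 0.0088).

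Genes of the metaphase to anaphase switch rose in 3 of 4 members in spleen and 4 of 4 in lymph node. Cdc20, the activator of the anaphase promoting complex, read 5.92 and 5.60 against 8.16, 8.28, 7.80 and 8.03 in spleen, and 5.90 and 5.95 against 7.82 and 8.80 in lymph node. Its rises were 2.31 (SE 0.24) and 2.39 (SE 0.28). The complex's ubiquitin-conjugating enzyme Ube2c rose by 2.28 and 2.90, and separase (Espl1) by 0.79 (SE 0.14) and 1.07 (SE 0.16). Securin (Pttg1), the inhibitor of separase, read 7.70 and 8.35 with GFP and 8.45, 8.51, 8.91 and 8.35 with oncogenic Vav1 in spleen, where the lowest oncogenic Vav1 array and the higher GFP array nearly touched. That change was 0.53 (SE 0.23, limma adjusted p = 0.11). In lymph node Pttg1 read 7.60 and 8.05 against 8.54 and 8.97 and rose by 0.93 (SE 0.26, limma adjusted p = 0.034).

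Condensin, which compacts chromosomes, was uneven across its 3 members. Ncapg, a regulatory subunit of condensin I, read 5.72 and 6.19 against 7.97, 8.49, 8.06 and 7.99 in spleen, and 5.40 and 5.42 against 7.87 and 9.39 in lymph node. It rose by 2.17 (SE 0.34) and 3.22 (SE 0.39). Ncapd2, a further condensin I subunit, rose by 0.84 and 1.03. Smc4, the ATPase that condensin I and II share, read 9.77 and 9.92 against 9.92, 10.15, 10.15 and 10.07 in spleen and 9.99 and 9.67 against 9.46 and 10.99 in lymph node. The lymph node groups overlapped, 1 oncogenic Vav1 array lying below both controls and the other above them. Smc4 passed in neither tissue (0.23, SE 0.32, limma adjusted p = 0.61; 0.40, SE 0.36, limma adjusted p = 0.51).

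**Figure D3:**
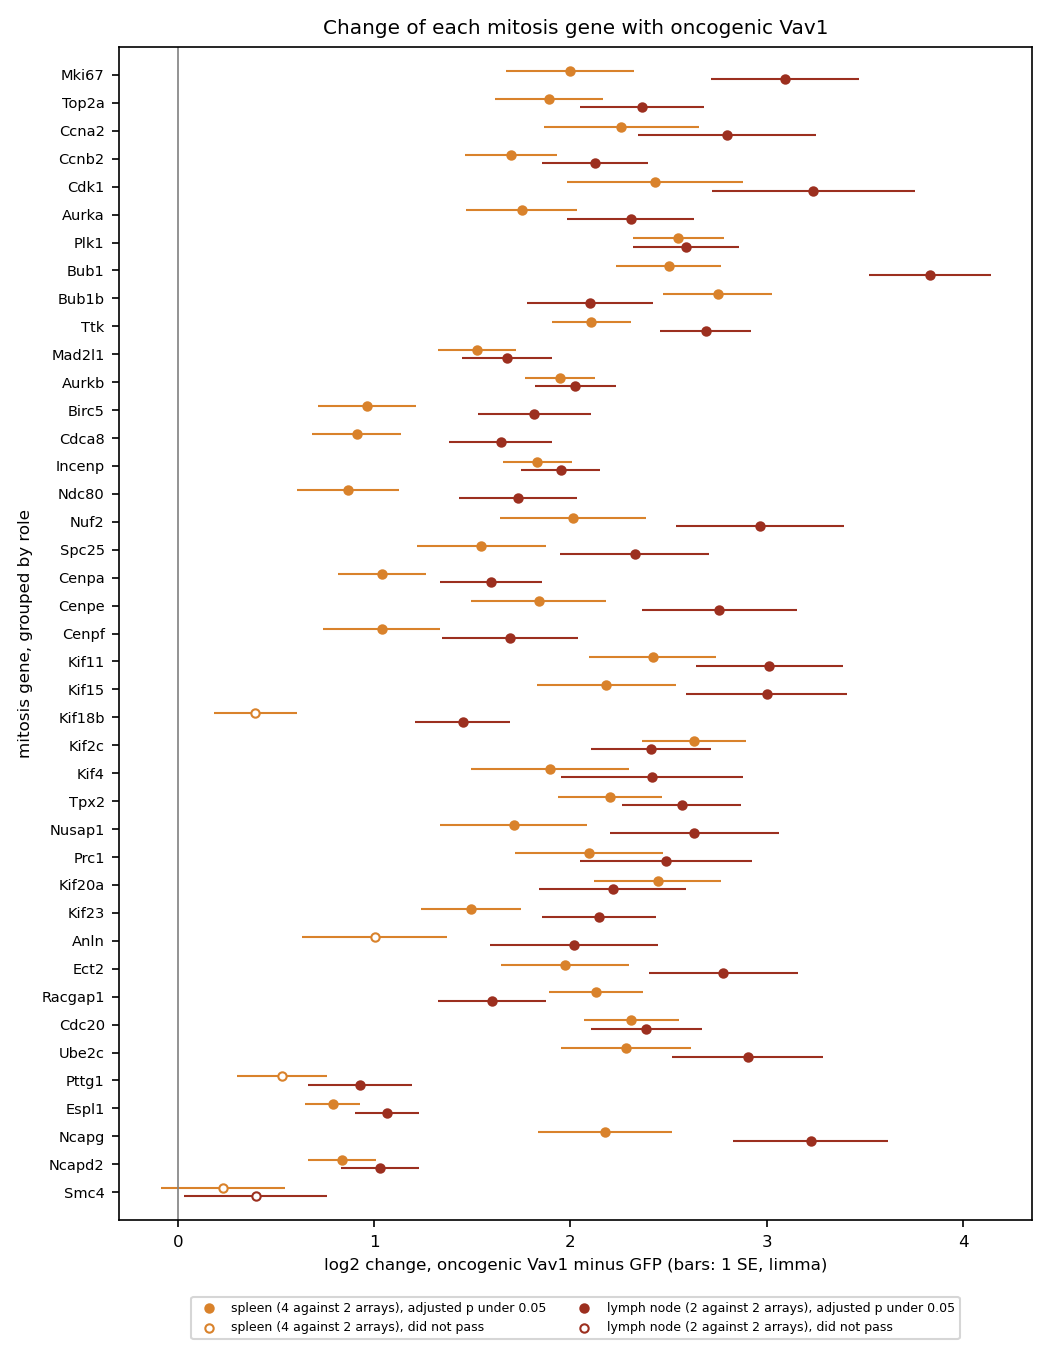
Log2 change with its standard error (limma) of each of the 41 mitosis genes, oncogenic Vav1 minus GFP, in spleen and in lymph node, ordered by role. All 41 are above 0 in both tissues, and Anln, Kif18b, Pttg1 and Smc4 in spleen and Smc4 in lymph node did not pass an adjusted p under 0.05.

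The size of the spleen change rested in part on 1 control array. Without GFP spleen replicate 1, which read lower than replicate 2 in 37 of 41 members, the median change was 1.62, against 1.90 with all arrays. The median was also 1.62 without both arrays of that replicate's animal, CTL2. Both fits leave a single GFP spleen array. Counts of calls with arrays left out are given below as ranges, beside those over all genes. In lymph node, a fit of the 4 lymph node arrays alone, with fewer arrays to estimate the spread, called 16 of the 41 at the same median of 2.33. Over all genes, that fit called 433, against 2500 as reported. The median SD of a member was 0.70 in oncogenic Vav1 lymph node, against 0.11 in GFP lymph node, 0.26 in GFP spleen and 0.28 in oncogenic Vav1 spleen. The reported fit shares its estimate of the spread over these groups, so its lymph node standard errors may be too small.

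Larger changes in lymph node than in spleen were seen in 37 of the 41 members, but the difference passed in none. The interaction of construct and tissue was called for 0 of the 41 at a limma adjusted p under 0.05 (8.04% of all genes tested were called), and for 5 of them, Birc5, Bub1, Kif18b, Mki67 and Ndc80, at an unadjusted p under 0.05, against 24.8% of all genes. The median difference was 0.59, lymph node minus spleen. It fell to 0.15 when replicate 2 of the oncogenic Vav1 lymph node arrays was left out and to 0.06 without both arrays of its animal, ONCO3. Bub1 and Kif18b came nearest, with differences of 1.32 (SE 0.40, limma adjusted p = 0.074) and 1.07 (SE 0.33, limma adjusted p = 0.075). Without oncogenic Vav1 lymph node replicate 1, 25 of the 41 were called, all with the larger change in lymph node, and 28 without both arrays of its animal, ONCO2. In those fits 3897 and 3856 of all 13393 genes were called, against 1077 as reported. Single members were called without GFP spleen replicate 2 (Racgap1, smaller in lymph node) and without GFP lymph node replicate 2 (Kif18b). A p that misses the threshold does not show that the tissues responded alike.

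No member was called between the tissues once the construct was in the model. The limma tissue effect was called for 0 of the 41 members, with 0 of them at an unadjusted p under 0.05, where 22 of all genes tested (0.164%) were called and 15.7% had an unadjusted p under 0.05. The members' median was 0.14 on the log2 scale, lymph node minus spleen, and turned to -0.09 without oncogenic Vav1 lymph node replicate 2.

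In 3 of the 4 groups, at least 37 of the 41 members had the same array on top. Oncogenic Vav1 lymph node replicate 2 was the highest of all 10 arrays in 41 of 41 members, with a mean of 9.49 over the members, and replicate 1 of that group had a mean of 8.49. The lymph node median change was 2.85 without replicate 1 and 1.77 without replicate 2. Among the oncogenic Vav1 spleen arrays, replicate 2 was the highest in 39 of 41 members and replicate 3 the lowest in 31, with means of 8.64, 8.94, 8.39 and 8.50 for replicates 1 to 4. GFP spleen replicate 2 was above replicate 1 in 37 of 41 members, while the GFP lymph node arrays split 29 to 12. GFP means were 6.66 and 7.10 in spleen and 6.71 and 6.78 in lymph node. The median SD of a member within its group was 0.26 in GFP spleen, 0.28 in oncogenic Vav1 spleen, 0.11 in GFP lymph node and 0.70 in oncogenic Vav1 lymph node, against 0.13, 0.15, 0.08 and 0.23 for all genes tested. Mitosis genes thus varied more between arrays of a group than the typical gene did.

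The animals with both tissues did not share an order of tissues. In the oncogenic Vav1 animal ONCO2 the lymph node array was higher in 3 of 41 members, with a median of -0.46, lymph node minus spleen. In ONCO3 it was higher in 41 of 41, with a median of 1.09. In the GFP animal CTL2 it was higher in 26 of 41, with a median of 0.05.

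Beyond the members, genes of the same machinery were counted from lists of fixed membership. Over all genes tested, 17.1% rose and 9.77% fell in spleen, and 7.87% rose and 10.8% fell in lymph node. Of 34 other kinetochore and centromere genes tested, 20 rose in spleen and 26 in lymph node, and none fell. Trip13, the ATPase that disassembles checkpoint complexes, rose by 2.10 and 1.84, and shugoshin (Sgo1), which protects centromeric cohesion, by 2.41 and 2.86. Of 35 other spindle and cytokinesis genes, 27 rose in spleen and 29 in lymph node, led by the centrosomal kinase Nek2 with 2.65 and 3.06. Of 27 other condensin, cohesin and anaphase promoting complex genes, 11 and 13 rose. There sororin (Cdca5), which stabilises cohesin, rose by 2.36 and 3.02, and the condensin I subunit Ncaph by 2.24 and 2.27. Of 28 regulators of mitotic entry and of its transcription, 16 rose in each tissue, and 0 fell in spleen and 2 in lymph node (E2f5 by 0.60 and Rbl2 by 0.54, named after their values were seen). The Cdk1 inhibitor kinase Wee1 rose by 1.12 and 1.76, the transcription factor B-Myb (Mybl2) by 1.82 and 3.07, and the phosphatase Cdc25c by 1.77 and 2.21. DNA replication genes rose as broadly, in 28 of 32 in spleen and 30 of 32 in lymph node, with medians of 1.27 and 1.38. The helicase subunit Mcm6 rose by 1.46 and 1.80 and its helicase partner Cdc45 by 1.52 and 2.00.

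Within the members, the change was set beside the promoter motifs shown above. The 28 measured members with a CHR core in their window had median changes of 1.93 in spleen and 2.35 in lymph node. The 7 measured members with a window and no CHR core had medians of 1.71 and 2.63. Bub1, without the core, and Ncapg, with it, both rose by more than 2 in spleen and 3 in lymph node. The 26 measured members with an NF-Y box had medians of 1.93 in spleen and 2.38 in lymph node, and the 9 without it 1.52 and 2.02. These splits were not tested. The ranges of the sets with and without the CHR core overlapped almost wholly, from 0.40 to 2.75 with the core and from 0.53 to 2.50 without it in spleen.

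Array by array, the mitosis genes were set beside T cell and erythroid genes. The mean of 15 T cell genes was 8.43 and 8.42 in GFP spleen, 8.80, 8.61, 9.01 and 8.64 in oncogenic Vav1 spleen, 9.35 and 9.37 in GFP lymph node, and 8.67 and 7.67 in oncogenic Vav1 lymph node. Mitosis genes were thus highest on the array with the lowest T cell mean, oncogenic Vav1 lymph node replicate 2. In spleen 2 of 15 T cell genes rose, Cd4 and Cd6, and Trat1 fell, where 17.1% of all genes tested rose and 9.77% fell. In lymph node 0 of 15 T cell genes rose and 8 fell, where 7.87% of all genes tested rose and 10.8% fell. Among those that fell were Trat1 and the CD8 gene Cd8b1, which had the smallest p of the list, Cd3g, by 1.70, and Cd4, by 0.99. The list holds CD8 genes too, so its mean does not stand for CD4+ T cells alone. Within oncogenic Vav1 spleen, replicate 3 had the highest T cell mean and the lowest mitosis mean.

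The mean of 14 erythroid genes was 6.84 and 8.05 in GFP spleen, 8.25, 9.64, 8.54 and 8.15 in oncogenic Vav1 spleen, 5.92 and 5.83 in GFP lymph node, and 8.26 and 10.7 in oncogenic Vav1 lymph node. The arrays highest in erythroid genes within each oncogenic Vav1 group, spleen replicate 2 and lymph node replicate 2, were also the highest in mitosis genes. In lymph node 14 of 14 erythroid genes rose, where 7.87% of all genes tested rose. Their median was 3.81, and the anion exchanger Slc4a1 rose by 3.77. In spleen 0 of 14 passed in limma, where 26.8% of all genes tested changed. Of the 14, 5 had an unadjusted p under 0.05, against 40.6% of all genes, and the median was 1.18. The other arrays did not all keep this order. Oncogenic Vav1 spleen replicate 3 was next in erythroid genes at 8.54 but had the lowest mitosis mean of its group, 8.39. Replicates 1 and 4 of that group had erythroid means of 8.25 and 8.15 and mitosis means of 8.64 and 8.50. On GFP lymph node replicates 1 and 2 the erythroid means were 5.92 and 5.83 and the mitosis means 6.71 and 6.78. The erythroid and mitosis means were 8.05 and 7.10 on GFP spleen replicate 2, and 6.84 and 6.66 on GFP spleen replicate 1. These are single arrays, and the part of erythroid RNA in the mitosis result was not tested beyond the covariate fits below.

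Other cell types' genes moved as well. Over all genes tested, 17.1% rose and 9.77% fell in spleen, and 7.87% rose and 10.8% fell in lymph node. At a limma unadjusted p under 0.05, 40.6% of all genes changed in spleen and 31.2% in lymph node. Neutrophil precursor genes rose in 9 of 11 in spleen and 7 of 11 in lymph node, with means from 5.69 to 5.81 on the 4 GFP arrays and from 7.34 to 8.23 on the 6 oncogenic Vav1 arrays. The granule gene Ngp rose by 4.22 and 3.85 and Mpo, the myeloperoxidase of early granulocytes, by 2.81 and 2.80 from GFP levels near background. Macrophage genes rose in 6 of 8 in spleen and 2 of 8 in lymph node, the latter being Cd5l and Vcam1. Plasma cell genes rose in 5 of the 6 tested in each tissue. The plasma cell marker Tnfrsf17 did not pass the filter on low values and was not tested. Rises in germinal centre genes numbered 3 of 4 in spleen (Gcsam, Mybl1 and S1pr2) and 1 of 4 in lymph node (Mybl1). Megakaryocyte genes rose in 0 of 5 in spleen (limma, with 0 at an unadjusted p under 0.05) and 3 of 5 in lymph node, Gp9, Pf4 and Ppbp. B cell genes fell in 8 of 9 in spleen and 2 of 9, Ebf1 and Fcer2a, in lymph node. Progenitor genes rose in 0 of 5 in either tissue (limma, with 2 at an unadjusted p under 0.05 in spleen and 3 in lymph node), and Cd34 and Flt3 fell in lymph node. The part of these cell types in the mitosis result was not tested beyond the fits below.

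**Figure D4:**
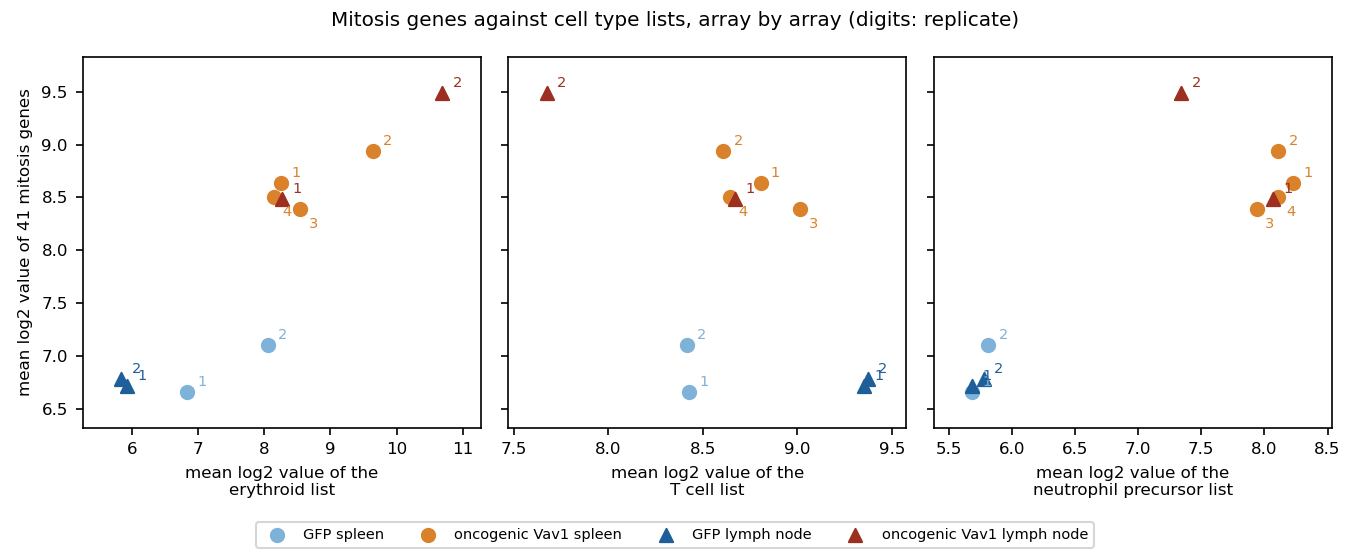
Mean log2 value of the 41 mitosis genes (vertical axis) against the mean log2 value of the erythroid, T cell and neutrophil precursor lists (horizontal axes) on each of the 10 arrays, with digits for replicates. The 6 oncogenic Vav1 arrays, with mitosis means of 8.39 to 9.49, lie above the 4 GFP arrays at 6.66 to 7.10 in each panel.

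With the erythroid mean of each array as a covariate, 36 of the 41 members rose in spleen, with a median of 1.40, and 12 in lymph node, with a median of 0.98. With the T cell mean as a covariate, 40 rose in spleen, with a median of 2.25, and 17 in lymph node, with a median of 1.11. Both covariates moved with the construct in lymph node, where the erythroid mean ranged over 0.08 within GFP and 2.43 within oncogenic Vav1. The interaction turned under them: 5 members were called smaller in lymph node with the erythroid covariate and 27 with the T cell covariate. The median of the intronic control probe sets, a measure of non-exonic signal, was 5.87 and 5.69 in GFP spleen and 5.43 to 5.55 in oncogenic Vav1 spleen. With it as a covariate, 31 members rose in spleen, with a median of 2.18 over the 41, and 40 in lymph node, with a median of 2.33.

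**Figure D5:**
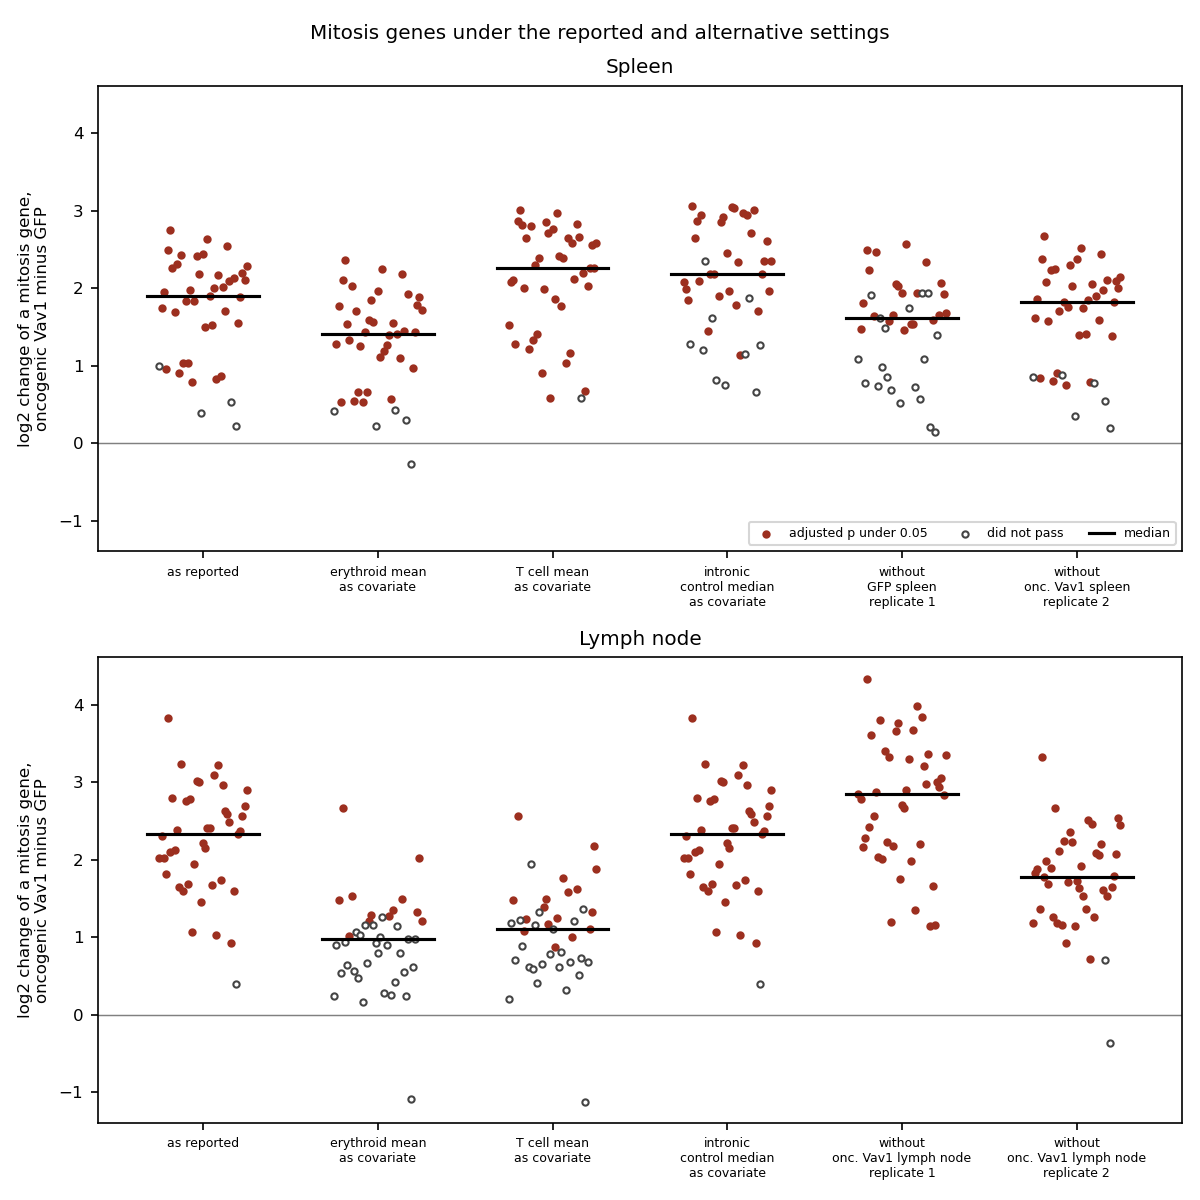
Log2 change of each of the 41 mitosis genes, oncogenic Vav1 minus GFP, in spleen (top) and lymph node (bottom) as reported, with covariates and without single arrays; filled points passed an adjusted p under 0.05 and bars are medians. The spleen median is 1.90 as reported and 1.40 with the erythroid covariate, and the lymph node median falls from 2.33 to 0.98.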

How the data were processed

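Single-colour Affymetrix arrays of 10 samples (2, 4, 2 and 2 per group) were analysed. The deposited values are log2 intensities made by the authors with RMA in R 3.6.3, per the submitters' processing notes; RMA's quantile step gives arrays one distribution, so changes are relative to the other genes. Array annotation, genome build and raw scans were not given in the sources used here. Of 29129 probe sets, 19572 had a single symbol in GEO's platform annotation, and the probe set with the highest mean stood for each of 55 genes with several. Genes above the 40th percentile of their own array on at least 2 arrays were tested (13393 of 19505). All 10 arrays entered models in limma, version 3.58.1, under R version 4.3.3, with statmod, version 1.5.0, for blocks (eBayes with a variance trend, two-sided, Benjamini-Hochberg over all genes tested, threshold 0.05): 4 groups for the construct effects, with animal as a random block for the interaction and, additive in construct, for tissue. The fit was tested on simulated data. Motifs were searched with Python 3.11.15.

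Any member could be named, and from each other list at most 4 genes of smallest p in a comparison plus defining cell type markers and Vav1. The members and lists were chosen with earlier results of these data known. No source says whether tissues were sorted or how cultures were replicated. Alternatives covered the filter, normalization, arrays in the fit, weights, blocks, probe set summary, 3 covariates and leaving out arrays or animals.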

Additional observations from a re-analysis of the deposited data

Results flagged for a closer look

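In 44 sets of 4 oncogenic Vav1 spleen values checked (members and list means), 3 held an array far from the others, each time replicate 2 at the top. Chance flags about 1 in 20 such groups. Mki67 read 12.1 there, with the other arrays between 11.48 and 11.53. Ndc80 read 8.35, with the others between 7.96 and 8.02, and Anln read 7.11, with the others between 6.45 and 6.54. Without that array the spleen count was 35 of 41.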

How the results depend on the processing

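The members' counts in spleen and tissue stayed within 1.5 times the reported ones under every alternative that kept all arrays. In lymph node the count fell from 40 to 16 with the arrays of that tissue alone, 12 with the erythroid covariate and 17 with the T cell covariate. The interaction, 0 as reported, was called for 5 members with the erythroid covariate and 27 with the T cell covariate, all negative (lymph node minus spleen). Against positive reported differences, the interaction was Ccna2 -0.92 and Plk1 -0.74 with the erythroid covariate, and Anln -1.51, Aurka -1.26, Aurkb -0.85, Ccna2 -2.29, Ccnb2 -1.16, Cdc20 -1.43, Cenpa -0.99, Cenpe -1.46, Cenpf -1.20, Ect2 -1.39, Kif11 -1.61, Kif15 -1.78, Kif23 -1.15, Kif4 -1.94, Mad2l1 -1.16, Ncapd2 -0.79, Ncapg -1.24, Nuf2 -1.68, Plk1 -1.48, Prc1 -2.26, Smc4 -1.64, Spc25 -1.61, Top2a -1.30, Tpx2 -1.40 with the T cell covariate. The cause was not tested. Over all genes, spleen calls went from 3596 to 916 with the intronic covariate. Lymph node calls went from 2500 to 433 with that tissue alone, 1264 with array weights, 1327 with the erythroid and 1553 with the T cell covariate. Interaction calls went from 1077 to 2602 (erythroid) and 3829 (T cell). Tissue calls went from 22 to 5 (repeated quantile normalization), 2750 (array weights), 3 (replicate block), 101 (erythroid), 557 (T cell) and 560 (intronic).

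Leaving out 1 array, or both of an animal, gave 12 to 39 members in spleen, 34 to 41 in lymph node, 0 to 28 for the interaction and 0 to 0 for tissue. Over all genes it gave 297 to 5849, 836 to 4650, 204 to 3897 and 3 to 1139. A group left with 1 array is assumed to vary like the others. With the title's replicate number as a block, 37 members rose in spleen, 40 in lymph node, and 0 were called for interaction or tissue, with 2674, 2128, 834 and 3 calls over all genes. Same-numbered arrays came from different animals. Their deviations correlated across genes at 0.04 for replicate 1 and 0.30 for replicate 2 in spleen, and at -0.06 in lymph node. With groups of 2, both lymph node numbers give the same value by construction. Whether same-numbered arrays shared a batch was not tested. Group sizes of 2 and controls near background limit what the lymph node values can show.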
